A study of Mus musculus with 6 samples.

Results

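The granulocyte-monocyte fate transcription factors examined here were 10 genes, found by symbol in the deposited expression table: the C/EBP family members Cebpa, Cebpb, Cebpd, Cebpe and Cebpg, the repressors Gfi1 and Gfi1b, the partners Spi1 (which encodes PU.1) and Irf8, and Per3. All 10 were matched among 55487 genes, and all 10 passed the filter on low counts that left 15332 genes for testing. The name of the group holds for most but not all of them, since Gfi1b acts mainly in erythroid and megakaryocyte cells and Per3 is a component of the circadian clock rather than a lineage factor. To ask how loss of Tespa1 changes the transcriptome of LSKs after stress, RNA was sequenced from 3 Tespa1+/+ and 3 Tespa1-/- samples. LSKs are bone marrow cells that lack lineage markers and carry Sca-1 and c-Kit, and they contain the hematopoietic stem and multipotent progenitor cells. All mice had received 5.0 Gy total body irradiation, and RNA was taken at day 13, so neither group is an unirradiated control. Tespa1-/- mice carried the constitutive B6.129S-Tespa1tm1Smoc allele on a C57BL/6 background, which is not limited to blood cells, and the controls were wild-type littermates. According to the study's general methods the mice were young adult males. The sources do not say whether each replicate came from 1 animal or from several pooled, so p-values measure only the spread between these samples, which may be technical.

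C/EBP, PU.1, IRF8 and GFI1 proteins form a network that directs progenitors toward the granulocyte or the monocyte and dendritic lineage. C/EBP alpha opens the granulocyte-monocyte path, C/EBP epsilon acts later and drives the genes of secondary granules, and PU.1 is needed by both lineages. IRF8, together with PU.1, favours monocytes and dendritic cells over neutrophils, and GFI1 represses monocyte genes. These roles in lineage choice are known mostly from committed progenitors, which lie downstream of LSKs.

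The targeted gene was checked first. Tespa1 stood at 34.5, 32.7 and 36.0 CPM (normalised read counts, scaled to a common library total) in the Tespa1+/+ libraries and at 15.3, 14.3 and 14.2 CPM in the Tespa1-/- libraries. The groups did not overlap and the log2 fold change of Tespa1-/- over Tespa1+/+ was -1.23 ± 0.07 (SE; adjusted p = 7.0e-06, edgeR quasi-likelihood test), so the transcript was lower but still counted in the knockout. Total counts ranged from 12856630 to 30576981. The LSK markers were present in every library, but their summed level ran from 1225 to 1269 CPM in Tespa1+/+ and from 712 to 733 CPM in Tespa1-/- libraries, and 5 of the 7 markers were called lower. Neutrophil markers summed to between 40.4 and 42.7 CPM in Tespa1+/+ and between 307 and 320.0 CPM in Tespa1-/- libraries, with 6 of 9 called higher. Among those called, Retnlg, Ltf and Camp passed the filter on low counts only through the Tespa1-/- libraries. A call of these genes follows from how they entered the test. The largest neutrophil markers in Tespa1-/- libraries were S100a9 and S100a8, with means of 114.6 and 88.4 CPM. Itgam went the other way, with 29.6, 31.7 and 29.6 CPM in Tespa1+/+ and 10.3, 24.2 and 27.5 CPM in Tespa1-/- libraries, and was not called. The groups overlapped for Cxcr2. The 8 monocyte markers summed to between 1302 and 1327 CPM against 1282 to 1338 CPM, with 1 called higher (Ly6c2) and 3 lower (Csf1r, Mpeg1 and Cx3cr1). B cell markers summed to between 54.7 and 59.97 CPM against 40.6 to 43.9 CPM and T cell markers to between 16.3 and 17.6 CPM against 8.13 to 9.22 CPM. Called lower were 5 of 8 B cell and 3 of 8 T cell markers. Of the latter, Cd4 passed the filter on low counts only through the Tespa1+/+ libraries, so its call follows from how it entered the test. Cd79b, a B cell marker, was higher in every Tespa1-/- library (22.7 ± 1.11 against 27.3 ± 1.03 CPM, SD) but was not called. Ly6g, a defining surface marker of mature neutrophils, had 0 counts in all Tespa1+/+ libraries and 7, 8 and 4 counts in the Tespa1-/- libraries. In bulk libraries such as these, a change in the share of a cell type and a change in RNA per cell cannot be told apart, and the part of the marker shift in the results below was not tested.

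A gene was called when its Benjamini-Hochberg adjusted p was under 0.05 and its fold change exceeded 1.5. By this rule Cebpe and Spi1 rose and Irf8 fell in Tespa1-/- LSKs, while the other 7 factors were not called. Called genes were common in the whole comparison, since 14.0% of all genes tested were called higher and 19.2% lower (33.3% in all), so 2 and 1 of 10 are near the background. All 10 factors had an adjusted p under 0.05 (7 higher and 3 lower), as had 63.3% of all genes tested (31.5% higher and 31.8% lower). For 9 of the 10 the groups were fully apart, against 69.1% of all genes tested, with 7 higher in every Tespa1-/- library and 2 lower, against 34.5% and 34.6%. The median log2 fold change of the 10 factors was 0.34, and that of all genes tested was -0.00.

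**Figure D1:**
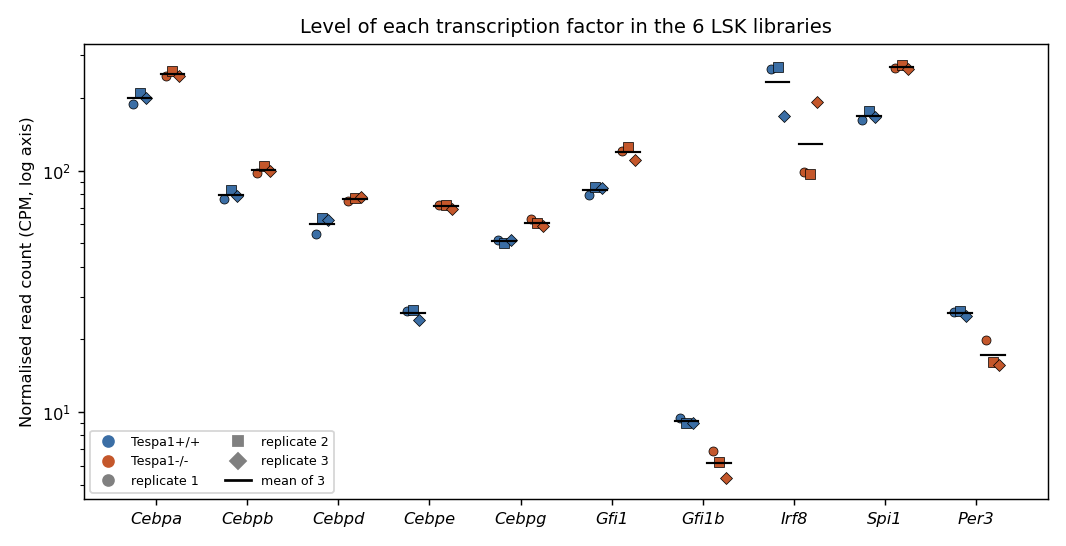
Normalised read count (CPM, log axis) of the 10 factors in each of the 6 LSK libraries. Blue points are Tespa1+/+, orange points Tespa1-/-, symbols mark the replicate number and black bars the mean of 3. The groups are apart for every factor except Irf8, whose replicate 3 libraries lie between the other libraries of both groups.

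The C/EBP proteins are bZIP factors, which bind DNA as dimers through a basic region followed by a leucine zipper. The family shares this basic region so closely that the coding sequences of 4 members can be laid side by side, which shows what these members have in common and how far short reads can be told apart. The lines below give, for the longest coding transcript of each gene in GENCODE M21 (build GRCm38), the 60 bases of Cebpa with the closest match in the other 3 genes and that match in each, 5′ to 3′ on the coding strand, with the 34 bases shared by all 4 in capitals.
Cebpa: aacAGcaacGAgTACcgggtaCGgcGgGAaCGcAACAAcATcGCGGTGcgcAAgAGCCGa
Cebpb: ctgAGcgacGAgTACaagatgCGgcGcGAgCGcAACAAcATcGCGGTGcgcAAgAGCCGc
Cebpe: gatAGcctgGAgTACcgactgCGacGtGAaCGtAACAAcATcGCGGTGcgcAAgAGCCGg
Cebpg: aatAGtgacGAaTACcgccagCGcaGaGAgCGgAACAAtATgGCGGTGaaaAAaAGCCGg

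These stretches lie at chr7:35120262-35120321 (Cebpa, plus strand), chr2:167689682-167689741 (Cebpb, plus strand), chr14:54710719-54710778 (Cebpe, minus strand) and chr7:35050597-35050656 (Cebpg, minus strand). Cebpa and Cebpb each have 1 exon, and the stretch of Cebpe and of Cebpg is in exon 2 of 2 of the transcript used. Compared with Cebpa, 81.7% of the bases were the same in Cebpb, 80.0% in Cebpe and 66.7% in Cebpg, the member that lacks a strong activation domain. No pair of these 4 transcripts shared an exact run longer than 29 bases.

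Cebpe showed the largest difference of the 10 factors. This gene (ENSMUSG00000052435, chr14:54710360-54712174, minus strand) encodes the C/EBP that is required for late granulocyte maturation. Its level was 26.2, 26.5 and 24.2 CPM in the Tespa1+/+ libraries and 71.8, 71.9 and 69.4 CPM in the Tespa1-/- libraries. Each knockout library was far above each control library, and the spread within a group was small (25.6 ± 1.28 against 71.1 ± 1.40 CPM, SD, n = 3 each). The rise was 2.77-fold (log2 fold change 1.47 ± 0.05, SE; adjusted p = 1.7e-06, edgeR), and no alternative setting ended the call. The study marks Cebpe on its plot of these libraries, so its place among the factors named for this comparison is not independent of the difference.

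Cebpa (ENSMUSG00000034957, chr7:35119293-35121928), the factor that opens the granulocyte-monocyte path, stood at 189, 209 and 199.7 CPM in Tespa1+/+ and at 247, 259 and 247 CPM in Tespa1-/- libraries. The groups were apart, but the difference was 1.26-fold (log2 fold change 0.33 ± 0.04; adjusted p = 4.6e-04, edgeR) and so was below the size that a call requires.

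Cebpb (ENSMUSG00000056501, chr2:167688915-167690418) encodes the C/EBP used in emergency granulopoiesis. The controls held 76.1, 83.1 and 78.8 CPM of it and the knockouts 97.8, 104.8 and 99.4 CPM. Cebpd (ENSMUSG00000071637, chr16:15887286-15891031), an inflammation-responsive member, had 54.5, 63.7 and 62.6 CPM against 74.6, 77.0 and 78.0 CPM. For both genes all knockout libraries were above all control libraries, and neither was called: the log2 fold change was 0.34 ± 0.05 for Cebpb (adjusted p = 6.2e-04) and 0.34 ± 0.07 for Cebpd (adjusted p = 0.00281, both edgeR). The exons of Cebpb overlap those of Tmem189 on the other strand over 312 bases (20.7%), and those of Cebpd overlap Spidr over 562 of their 3746 bases. The libraries were stranded, but whether counting used the strand was not given in the sources used here, so reads from these stretches may have been assigned to either gene. Tmem189 had 375 to 813 counts per library and Spidr 441 to 1460.

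Cebpg (ENSMUSG00000056216, chr7:35046422-35056573, minus strand) dimerises with the other members and can restrain them. Without length correction it had the smallest difference of the family, with 51.5, 50.3 and 51.7 CPM in Tespa1+/+ and 63.2, 60.5 and 58.8 CPM in Tespa1-/- libraries. The groups did not overlap, and the log2 fold change was 0.25 ± 0.05 (adjusted p = 0.00230, edgeR), which was not called.

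Because C/EBP proteins pair with one another, their levels were also compared per length, as shares of the summed FPKM of the 5 genes (FPKM divides the count by the length of the gene and the total of the library). Cebpe made up 16.1%, 15.1% and 14.4% of this sum in Tespa1+/+ and 28.8%, 27.8% and 28.0% in Tespa1-/- libraries. The shares of the other members were lower in all Tespa1-/- libraries than in all Tespa1+/+ libraries. The mean share went from 38.8% to 33.0% for Cebpb, from 30.5% to 25.8% for Cebpa, from 10.6% to 9.04% for Cebpd and from 4.93% to 3.93% for Cebpg. These shares add to a whole, so a larger share of 1 member lowers the others by construction. The 5 genes range from 1241 bases of exon (Cebpe) to 5621 bases (Cebpg). No correction for the length trend described below was applied to the shares, and that trend does not cancel between genes of unlike length.

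GFI1 and GFI1B are zinc-finger repressors that carry an almost identical set of fingers and recruit the same LSD1 corepressor complex. Their coding sequences are shown here because the pair moved in opposite directions even though they are alike in sequence. The 60 bases most alike between them lie in the zinc-finger part and cross from exon 6 into exon 7 in both genes, between chr5:107717905-107720155 for Gfi1 and chr2:28610190-28611464 for Gfi1b, both on the minus strand of GRCm38. Capitals mark the 57 shared bases.
Gfi1: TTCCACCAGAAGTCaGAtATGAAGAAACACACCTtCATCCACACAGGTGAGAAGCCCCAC
Gfi1b: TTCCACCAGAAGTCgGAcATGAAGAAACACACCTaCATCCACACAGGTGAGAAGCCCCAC

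The longest exact run that the longest coding transcripts of the pair share was 27 bases. Gfi1 (ENSMUSG00000029275, chr5:107716657-107726036, minus strand), which is needed for neutrophil formation, stood at 78.9, 85.9 and 84.5 CPM in Tespa1+/+ and at 120.6, 125.8 and 110.8 CPM in Tespa1-/- libraries. Every knockout library was above every control library, and the 1.43-fold difference (log2 fold change 0.52 ± 0.06; adjusted p = 2.0e-04, edgeR) was just short of a call. Exons of Gfi1 overlap 101 bases of A430072P03Rik on the other strand, which had 18 to 67 counts per library.

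Gfi1b (ENSMUSG00000026815, chr2:28609450-28621982, minus strand), the relative that acts in erythroid and megakaryocyte cells, went the other way. Its level was low, at 9.41, 9.03 and 9.04 CPM in the controls and 6.87, 6.20 and 5.32 CPM in the knockouts. The groups were apart, and the log2 fold change of -0.57 ± 0.11 (1.49-fold, adjusted p = 0.00344, edgeR) lay at the edge of the 1.5-fold threshold without passing it. Gfi1b passed the threshold with total counts, with a minimum of 10 counts, without Tespa1-/- replicate 1, with length correction and with limma on log2(FPKM + 0.1), where the log2 fold change ran from -0.59 to -0.71. Megakaryocyte markers summed to between 121.6 and 127.9 CPM in Tespa1+/+ and to between 70.2 and 74.4 CPM in Tespa1-/- libraries, with 3 of 7 called lower. Erythroid markers summed to between 29.0 and 29.8 CPM against 50 to 54.1 CPM, with 4 of 9 called higher (globin genes and Slc4a1) and 2 lower (Epor and Klf1). Slc4a1 and the globin gene Hba-a2 passed the filter on low counts only through the Tespa1-/- libraries, so their calls follow from how they entered the test.

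The region upstream of Gfi1b is shown because GFI1 and GFI1B are known to repress it. The RefSeq promoter table (GRCm38.p6) held a window of 300 bases for 7 of the 10 factors. The core letters of the GFI1 binding motif, AAATCA, were searched on both strands of the 250 bases before the start in each window. Every motif and every share of windows given below refers to these 250 bases. The 150 bases before the start of Gfi1b (chr2:28621983-28622132, minus strand) hold 1 match, at -34 to -29 from the start, in capitals, which overlaps none of the other motifs searched.
Gfi1b: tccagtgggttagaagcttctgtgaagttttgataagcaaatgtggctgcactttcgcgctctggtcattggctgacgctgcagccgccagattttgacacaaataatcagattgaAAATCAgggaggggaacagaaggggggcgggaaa

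Such a match is common, since 12.4% of the 32851 promoter windows hold at least 1, and it is a description of the letters only. Among the windows of the other factors, AAATCA also occurred in both windows of Irf8. The same search, on both strands, used the letters TTGCNNAA for C/EBP (in 9.56% of all windows), AGGAAGT for PU.1 (7.69%), the IRF element (2.98%), CACGTG for the E-box (6.02%), CCAAT (33.8%), TATAAA (12.4%) and TTATGNAA for the D-box. The C/EBP letters were found at -143 to -136 from 1 start of Gfi1 and in no other window of the 7 factors, and those of PU.1, IRF and the E-box in none.

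Spi1 (ENSMUSG00000002111, chr2:91082390-91115756) encodes PU.1, the ETS factor that both the granulocyte and the monocyte lineage require. It stood at 162, 177 and 166 CPM in Tespa1+/+ and at 265, 275 and 264 CPM in Tespa1-/- libraries. The groups were far apart and the libraries of each agreed within 7.59 and 5.86 CPM (SD). The rise was 1.59-fold (log2 fold change 0.67 ± 0.04; adjusted p = 1.0e-05, edgeR). Spi1 lay close to the threshold of 1.5, and its fold was below it with total counts (log2 fold change 0.57) and with the 3 limma settings (0.56 to 0.57), in which its adjusted p stayed under 0.05.

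Irf8 (ENSMUSG00000041515, chr8:120736358-120756694), the monocyte and dendritic partner of PU.1, was the factor with the widest spread. It stood at 264, 268 and 169 CPM in Tespa1+/+ and at 98.5, 96.4 and 191.5 CPM in Tespa1-/- libraries. Replicate 3 was the low library of the controls and the high library of the knockouts, so that Tespa1-/- replicate 3 was above Tespa1+/+ replicate 3 and the groups overlapped. The means were 233 ± 56.2 and 129 ± 54.3 CPM (SD, n = 3 each), and the fall was 1.82-fold (log2 fold change -0.86 ± 0.30; adjusted p = 0.0380, edgeR). This call rests on single libraries. The adjusted p was 0.10 without Tespa1+/+ replicate 1, 0.11 without Tespa1+/+ replicate 2, and 0.11 without Tespa1-/- replicate 1 or replicate 2. Without both replicate 3 libraries, a setting chosen after the values were seen, the log2 fold change was -1.44 and the adjusted p 2.0e-04. Over all alternatives the adjusted p ran from 2.0e-04 to 0.21, and the direction was kept in each.

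Irf8 had 1400 to 8469 counts per library. Its SD on the log2 CPM scale was 0.38 over the controls and 0.56 over the knockouts, where the medians over 4432 genes with a mean count of at least 1000 were 0.047 and 0.048. Only 78 (1.76%) and 59 (1.33%) of these genes had an SD as large. Of the other factors in this range (Cebpa, Cebpb, Cebpd, Gfi1 and Spi1), the largest was 0.12, that of Cebpd in Tespa1+/+ libraries.

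Per3 (ENSMUSG00000028957, chr4:151003652-151044665, minus strand) encodes a period protein of the circadian feedback loop. Its level was 25.9, 26.2 and 25.1 CPM in the controls and 19.8, 16.1 and 15.6 CPM in the knockouts. The groups did not overlap, and the log2 fold change of -0.58 ± 0.10 (1.49-fold, adjusted p = 0.00170, edgeR) missed the fold that a call requires. Per3 passed it with total counts, with a minimum of 10 counts, with the replicate numbers as a block and with limma on log2(FPKM + 0.1). It also passed without Tespa1+/+ replicate 3 and without Tespa1-/- replicate 1. In these settings the log2 fold change ran from -0.59 to -0.69. Per3 is also the factor with the longest exons, 9608 bases in all. With a correction for gene length its log2 fold change was -0.05 (adjusted p = 0.66), so that no difference was detected in that setting.

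The Per3 promoter is shown because the D-box, a motif bound by the clock factors DBP, TEF and HLF and by their antagonist NFIL3, occurs in it more than once, and these 4 genes were all called. The 250 bases before the RefSeq start (chr4:151044666-151044915, minus strand, GRCm38.p6) hold 2 copies of TTATGNAA, in capitals, at -205 to -198 and at -158 to -151. They overlap no other motif searched.
Per3: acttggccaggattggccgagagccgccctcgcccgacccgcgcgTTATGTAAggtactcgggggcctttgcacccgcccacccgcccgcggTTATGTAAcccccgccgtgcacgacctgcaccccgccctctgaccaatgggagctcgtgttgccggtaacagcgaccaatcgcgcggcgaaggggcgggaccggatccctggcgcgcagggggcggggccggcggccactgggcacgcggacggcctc

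At least 1 D-box was found on either strand in 3.07% of the 32851 promoter windows, and at least 2 in 42 of them (0.128%). The match describes letters, and no binding was measured here.

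Fold changes in this series followed gene length, which bears on factors that range from 1241 bases of exon (Cebpe) to 9608 bases (Per3). Across 10100 genes, which share libraries and so are no replicates, the fold change and the union exon length had a Spearman's rho of -0.62, and over the 10 factors this was -0.59. The median log2 fold change was 0.61 for genes under 1500 bases and -0.36 for genes over 6000 bases. When this trend was removed with an offset per library, Cebpe (log2 fold change 1.23) and Spi1 (0.64) were still called, and Gfi1b (-0.71) was called as well. Irf8 had a log2 fold change of -0.48 (adjusted p = 0.21), Cebpb moved from 0.34 to 0.15 and Cebpg from 0.25 to 0.52. What gives rise to the length trend was not tested.

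**Figure D2:**
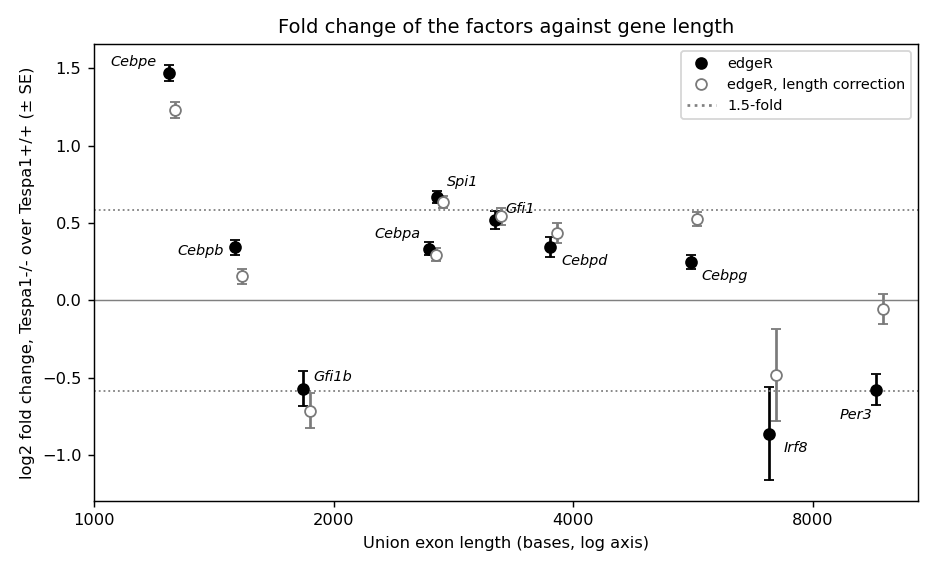
Log2 fold change of each factor (Tespa1-/- over Tespa1+/+, bars show ± 1 SE) against its union exon length (log axis). Filled points are the edgeR values, open points those after length correction (drawn slightly to the right), and dotted lines mark 1.5-fold. Cebpe moves from 1.47 to 1.23 and stays above the line, whereas Per3 moves from -0.58 to -0.05.

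Lineage choice is often described by the balance of opposing factors, so 7 ratios of FPKM were formed within each library, where scaling between libraries plays no part. The length trend given above does not cancel between genes of unlike length, such as Spi1 (2695 bases) and Irf8 (7055 bases). No length correction was applied to the ratios. The ratio of Gfi1 to Gfi1b was 5.48, 6.21 and 6.11 in the controls and 11.5, 13.2 and 13.6 in the knockouts. Cebpe stood at 0.535, 0.491 and 0.466 times the level of Cebpa in Tespa1+/+ libraries and at 1.12, 1.07 and 1.09 times that level in Tespa1-/- libraries, so the order of the pair was turned in every library. On the log2 scale these ratios differed by 1.10 ± 0.10 and 1.14 ± 0.06 (SE). The 3 ratios over Irf8 were also higher in all Tespa1-/- libraries, by 1.42 ± 0.44 for Gfi1, 1.24 ± 0.41 for Cebpa and 1.57 ± 0.40 for Spi1. Replicate 3 again stood apart: the ratio of Gfi1 to Irf8 was 0.914 in Tespa1+/+ replicate 3 and 1.06 in Tespa1-/- replicate 3, against 0.547 and 0.584 in the other controls and 2.23 and 2.38 in the other knockouts. Cebpa was lower relative to Spi1 in the knockout libraries, with ratios of 0.803, 0.814 and 0.831 in Tespa1+/+ against 0.644, 0.652 and 0.645. The ratio of Cebpb to Cebpa ranged from 1.26 to 1.28 in Tespa1+/+ and from 1.26 to 1.29 in Tespa1-/- libraries, and these ranges overlapped (log2 difference 0.01 ± 0.01). In an exact two-sided permutation test each of the other 6 ratios reached p = 0.10, the smallest that 3 against 3 allows, which cannot pass 0.05 (adjusted p = 0.117 over 7 ratios), and Cebpb to Cebpa gave p = 0.60.

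**Figure D3:**
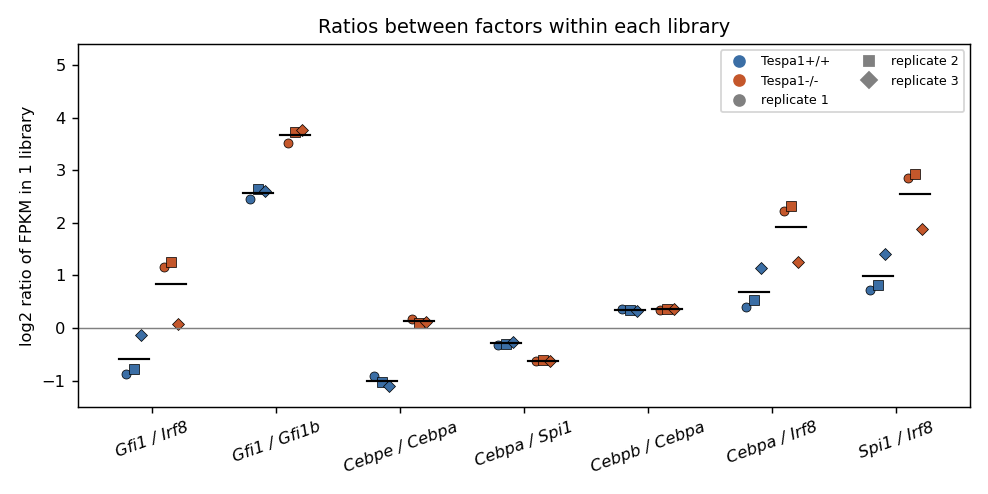
Log2 ratio of FPKM between pairs of factors within each library, with Tespa1+/+ in blue, Tespa1-/- in orange, a symbol for each replicate and a bar at the mean of 3. The groups are apart for 6 pairs and overlap for Cebpb over Cebpa, and the replicate 3 libraries approach each other in the 3 ratios over Irf8.

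Per length, the order of the factors differed between the groups. These levels were not corrected for the length trend given above. In Tespa1+/+ libraries Cebpb (54.5 ± 2.35 FPKM, SD) and Spi1 (52.7 ± 2.31) led with overlapping ranges, followed by Cebpa (43.0 ± 2.10), then Irf8 (27.2 ± 6.55) and Cebpe (21.3 ± 1.07), whose ranges also overlapped, then Gfi1 (17.7 ± 0.759) and Cebpd (14.9 ± 1.23). In Tespa1-/- libraries Spi1 (78.1 ± 1.80 FPKM) was first, followed by Cebpb (64.6 ± 2.42), Cebpe (55.2 ± 1.09) and Cebpa (50.6 ± 1.497), each apart from the next. Irf8 (14.0 ± 5.91) came after Gfi1 (23.6 ± 1.52) and Cebpd (17.7 ± 0.417), with a range that overlapped that of Cebpd. Cebpg (6.93 ± 0.114 FPKM in Tespa1+/+ and 7.69 ± 0.277 in Tespa1-/-), Gfi1b (2.98 ± 0.0758 and 1.86 ± 0.234) and Per3 (2.09 ± 0.0477 and 1.31 ± 0.173) held the last places in both groups, and each was apart from the next.

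The genes whose profile over the 6 libraries was closest to a called factor were sought among 10821 genes with a mean count of at least 100, by Euclidean distance between log2 CPM deviations. Closest to Cebpe were AB124611 (distance 0.13), Siglece (0.16) and Ms4a3 (0.19). Closest to Spi1 were Tsfm (0.052), Surf4 (0.055) and Nxt1 (0.055). No gene followed Irf8 as closely, since the nearest were Zfp945 (0.47), Gm45705 (0.49) and Crebrf (0.58). In so few libraries that fall into 2 groups, nearness mostly reflects a similar fold change.

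Known partners, regulators and targets of the factors were examined as 8 lists with 110 genes, of which 104 were tested. Over all lists 19 of the 104 tested genes were called higher and 34 lower, and the median log2 fold change was -0.13. The shares over all genes tested were 14.0% higher and 19.2% lower. With at least 10 counts in every sample 13 of 96 list genes were called higher, and 3 rather than 9 secondary granule genes were tested. The values of the named genes below are log2 fold changes of Tespa1-/- over Tespa1+/+ with adjusted p-values from edgeR. Genes other than the largest rise and the largest fall of each list were picked after their values were seen.

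Among 12 partners and turnover factors of the C/EBPs, 3 rose and 3 fell (median 0.19), a count near that of the 14.0% and 19.2% over all genes tested. Atf5, a bZIP protein of the ATF4 family, rose from 16.9, 17.8 and 18.4 CPM to 58.5, 63.2 and 58.8 CPM (1.77 ± 0.06; adjusted p = 1.4e-06), and Batf, a bZIP partner of IRF4 and IRF8, rose by 0.78 (0.57 with length correction, which was not called). Atf3, another bZIP partner, fell (-0.76; adjusted p = 1.3e-04). The Tribbles genes split: Trib3 rose (2.64; adjusted p = 2.7e-05), while Trib1 (-0.75; adjusted p = 7.7e-06) and Trib2 (-2.0; adjusted p = 1.6e-04), whose products direct C/EBP alpha to degradation, fell. Trib1 went from 125.9, 131.7 and 134 CPM to 75.9, 80.5 and 76.7 CPM. Trib2 and Trib3 were scarce, with 10 to 116 and 14 to 117 counts per library.

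Of 21 tested partners and antagonists of PU.1 and IRF8, 11 were called lower and none higher (median -0.59), against 19.2% and 14.0% of all genes tested. Egr1, an immediate early factor that favours the macrophage path, fell most, from 584, 592 and 587 CPM to 84.7, 87.5 and 84.3 CPM (-2.78 ± 0.03; adjusted p = 3.7e-08). The study itself reported lower Egr1 in Tespa1-deficient cells after stress, also by qPCR, and counts it among c-Myc targets. Klf4 (-1.14; adjusted p = 7.9e-06), a monocyte factor, Irf4 (-1.18; adjusted p = 3.1e-04), the closest relative of Irf8, and Zeb2 (-1.16; adjusted p = 2.0e-05), which acts in monocyte and dendritic development, fell as well. So did Gata2 (-0.91; adjusted p = 0.00460) and Gata1 (-0.84; adjusted p = 5.4e-04), antagonists of PU.1. With length correction 7 of the 21 were called lower, and Zeb2 was at -0.30.

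The corepressors that GFI1 and GFI1B recruit were called lower in 5 of 16 cases and higher in none (median -0.37). Over all genes tested 19.2% were called lower and 14.0% higher. Gse1, which associates with the LSD1 and CoREST complex, had the largest fall (-1.11; adjusted p = 4.4e-06), followed by Zmym3 (-0.91; adjusted p = 9.0e-06). Kdm1a, which encodes LSD1 itself, stood at 112 ± 12.2 and 105 ± 1.43 CPM (adjusted p = 0.32). With length correction 1 of the 16 was called lower.

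Cytokine receptor genes that these factors regulate were called lower in 4 of 10 cases and higher in none (median -0.13). The shares over all genes tested were 19.2% lower and 14.0% higher. Flt3, the receptor that supports dendritic and lymphoid progenitors, went from 228, 226 and 223 CPM to 111.6, 111.9 and 112.9 CPM (-1.01 ± 0.03; adjusted p = 1.0e-06). Kit, the stem cell factor receptor (-0.97; adjusted p = 2.1e-06), Il6st, the shared signalling chain of the interleukin-6 family (-1.0; adjusted p = 0.00214) and Csf1r (-0.65; adjusted p = 2.3e-05), the receptor for macrophage colony-stimulating factor, fell too. Csf3r, the granulocyte colony-stimulating factor receptor, had a log2 fold change of -0.13 (adjusted p = 0.00823) and was not called. Csf2rb, the shared chain of the interleukin-3 and granulocyte-macrophage colony-stimulating factor receptors, was higher by 0.54 (adjusted p = 0.00629) and was not called, but it was called without Tespa1+/+ replicate 1 (0.61), without Tespa1-/- replicate 1 (0.67) and with length correction (0.94). With length correction 1 gene of this list was called lower. Flt3 and Kit are also in the LSK marker list.

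Granule genes are targets of C/EBP factors and PU.1. Of 8 tested primary granule genes 6 rose and none was called lower (median 1.0), against 14.0% and 19.2% of all genes tested. Ms4a3, a marker of granulocyte-monocyte progenitors, rose from 331, 312 and 309.6 CPM to 858, 796 and 783 CPM (1.36 ± 0.04; adjusted p = 1.3e-06). Elane, which encodes neutrophil elastase, rose by 1.0 (adjusted p = 1.6e-05) and Prtn3, which encodes proteinase 3, by 1.03 (adjusted p = 1.2e-06). Mpo, the myeloperoxidase gene, was higher by 0.48 (adjusted p = 5.0e-06) but was not called.

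The 9 secondary granule genes, which depend on C/EBP epsilon, were at very different levels in the controls. Lcn2, Hp and Mmp8 had at least 10 counts in every library, and these 3 rose. The other 6 (Ngp, Ltf, Camp, Mmp9, Chil3 and Cd177) passed the filter on low counts only through the Tespa1-/- libraries, where they are high, so a call of these genes follows from how they entered the test, and their values are given as a description. Ngp, a neutrophil granule protein, had 3, 8 and 5 counts in the Tespa1+/+ libraries and 1226, 1054 and 885 counts in the Tespa1-/- libraries (log2 fold change 8.14). Ltf, the lactoferrin gene, had 0, 10 and 3 counts against 823, 689 and 625, so the size of its fold rests on a handful of control reads. Lcn2 went from 16.1, 14.95 and 16.2 CPM to 132, 119 and 135 CPM (3.03 ± 0.07; adjusted p = 4.1e-07), Hp rose by 1.63 from 154 ± 17.2 CPM and Mmp8 by 1.49 from 2.22 ± 0.530 CPM. The neutrophil marker list holds 3 of these 9 genes (Mmp8, Ltf and Camp), and its summed level moved with them as given above. Ngp and Prtn3 are among the genes that the study marks on its plot of these libraries, so the direction of these lists is not independent evidence. With length correction the 3 genes counted in every library and 6 of the primary granule genes were still called.

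Among 11 tested monocyte and dendritic genes that depend on IRF8, 4 were called lower and none higher (median -0.14). All genes tested gave 19.2% lower and 14.0% higher. Cx3cr1, a chemokine receptor of monocytes, was at 14.4, 7.95 and 8.63 CPM in Tespa1+/+ and at 3.46, 3.99 and 3.95 CPM in Tespa1-/- libraries (-1.44 ± 0.25; adjusted p = 0.00188). Mpeg1, the macrophage-expressed perforin-like gene, fell by 0.81 on the log2 scale (adjusted p = 2.9e-06). Other genes of this list had higher values in every Tespa1-/- library without being called, among them Cst3 (0.40; adjusted p = 2.9e-05), Ctss (0.44; adjusted p = 4.4e-04) and Cd68 (0.24; adjusted p = 0.0367). The limma settings called 2 genes of the list lower in place of 4.

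Of 17 tested clock genes 7 fell and 1 rose (median -0.42), against 19.2% and 14.0% of all genes tested. The relatives of Per3 both fell, Per1 by 0.78 (adjusted p = 1.2e-04) and Per2 by 0.96 (adjusted p = 1.3e-04). Tef had the largest fall, from 26.6, 25.0 and 24.4 CPM to 10.2, 11.02 and 8.06 CPM (-1.37 ± 0.12; adjusted p = 5.0e-05), and the other D-box activators Hlf (-1.21; adjusted p = 7.3e-04) and Dbp (-0.76; adjusted p = 0.00859) fell with it. Nfil3, the D-box repressor, was the gene that rose, from 23.2, 22.6 and 23.1 CPM to 47.7, 47.3 and 45.8 CPM (1.03 ± 0.05; adjusted p = 4.0e-06). Nr1d2, a nuclear receptor of the loop, fell by 0.82 (adjusted p = 3.2e-05). With length correction 4 genes were called lower and Nfil3 was still called higher, while Per1 was at -0.51 and Per2 at -0.67. The hour of collection of each library was not given in the sources used here, so time of day and genotype cannot be told apart for clock genes.

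**Figure D4:**
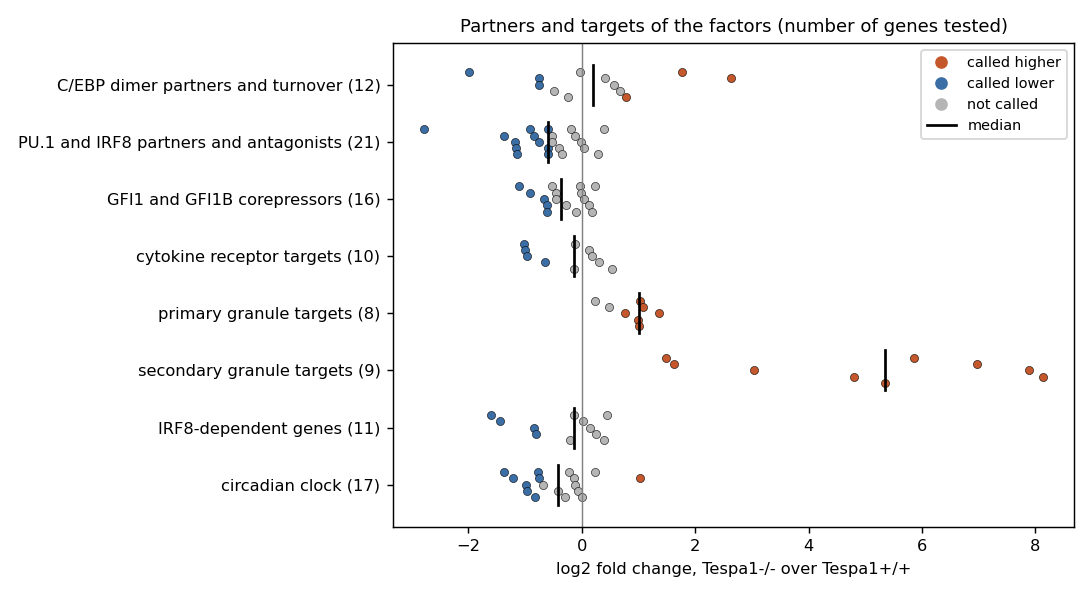
Log2 fold change (Tespa1-/- over Tespa1+/+) of every tested gene in the 8 lists of partners and targets. Each point is a gene (orange called higher, blue called lower, grey not called), black bars are medians and the number of genes tested is in parentheses. The secondary granule genes reach the largest values, though 6 of the 9 passed the filter on low counts only through the Tespa1-/- libraries, and the PU.1 and IRF8 partners have 11 genes called lower and none higher.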

How the data were processed

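Poly-A RNA of sorted LSKs was made into stranded paired-end libraries and sequenced on a NovaSeq instrument. The submitters' processing notes name CASAVA 1.8, HISAT2, StringTie, edgeR and the build GRCm38, without further versions. The authors deposited raw counts and FPKM values (counts per length and per library total) for 55487 genes. Groups and replicate numbers came from the sample titles. Total counts ranged from 12856630 to 30576981 per library, and the factors had 66 to 8469 counts per library, so counting error is largest for Gfi1b. What is said of low counts covers counting error only.

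After filterByExpr and TMM scaling, the counts of all 6 samples were fitted without covariates by the quasi-likelihood method of edgeR 4.0.16 (R 4.3.3), with Benjamini-Hochberg adjustment over 15332 genes. A call needed an adjusted p below 0.05 together with a fold above 1.5. The deposited FPKM values were used for levels between genes, for ratios within a library (exact permutation test) and in limma 3.58.1. Alternatives were other scalings and filters, DESeq2 1.42.0, a replicate block, leaving out each library, limma-trend on FPKM with pseudocounts of 1 and 0.1, and a length correction (loess, span 0.5, of log2 CPM deviation on union exon length from GENCODE M21, used as an offset). Leaving out both replicate 3 libraries was added after the data were seen. The code was tested on simulated counts with 200 changed genes. Deviations of same-numbered libraries from their group means correlated at -0.073, -0.078 and 0.014, so no shared deviation of such libraries was seen. These values cannot show whether same-numbered libraries were prepared together.

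Of the genes in the table, 55227 were found in GENCODE M21 and 54870 had the same coordinates. A symbol with more than 1 identifier was read from the identifier with the most counts. Promoter windows came from RefSeq (GRCm38.p6) and coding sequences from GENCODE M21. The coding stretch of 1 C/EBP gene is not reported here. The factors and gene lists were chosen with earlier results of these data known. Named genes were all factors, Tespa1, the largest rise and fall of each list among called genes with a mean count of at least 100, the 3 nearest profiles of each called factor, and others named after their values were seen.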

Additional observations from a re-analysis of the deposited data

How the results depend on the processing

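The direction of all 10 factors was kept in all 17 alternatives (170 values). In 147 of these each factor also kept its side of the threshold, and the exceptions were Irf8, Spi1, Gfi1b and Per3, which lie near it. Against 2 factors called higher, 1 was called with total counts and with all 3 limma settings. Against 1 called lower, 3 were called with total counts, with at least 10 counts in every sample and with limma on log2(FPKM + 0.1), 0 with DESeq2 and with limma without a filter, and 0 to 2 when 1 library was left out (0 without Tespa1+/+ replicate 1 or 2 or Tespa1-/- replicate 2, and 2 without Tespa1+/+ replicate 3 or Tespa1-/- replicate 1). With length correction 1 factor in place of 3 had an adjusted p under 0.05 and was lower, and 19 in place of 34 list genes were called lower, the long genes among them having been shifted by the offset. Kdm1a was at 0.14 with length correction against -0.09, and the within-library ratio Cebpb to Cebpa (log2) was -0.00300 without both replicate 3 libraries against 0.00870, and neither was called. The cause of these changes was otherwise not tested.

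The replicate numbers, whose libraries showed no shared deviation by the correlations above, were also used as a block. With them as a block, 2 factors were called higher and 1 lower as before, but the lower one was Per3 (log2 fold change -0.59) and no longer Irf8 (-0.92, adjusted p = 0.081), and 20 and 34 list genes were called higher and lower. Total counts without scaling factors moved the median of all log2 fold changes by -0.10 and the share of higher among called genes from 42.1% to 29.8%. For Gfi1b and Per3, 66 to 285 and 194 to 828 counts per library limit how finely a fold near 1.5 can be placed.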
